A study of Homo sapiens with 32 samples.

Results

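The genes described here are 47 direct targets of the transcription factor p53 that are studied less often than the cell cycle inhibitor CDKN1A or the ubiquitin ligase MDM2. They were taken by name from a list, and all 47 were among the 35587 gene symbols of the expression matrix. The list was chosen with earlier results of these data known. Shares of members set against all tested genes are therefore descriptions and not independent evidence. The cells were U2OS, a human osteosarcoma line with wild-type p53, and CRISPR-Cas9 had been used to derive lines of other p53 genotypes from it. There were 4 genotypes, namely p53-null cells (KO), cells with the A347D change on 1 allele (HET), cells with A347D on both alleles (HOM) and the wild-type cells (WT). A347D lies in the tetramerization domain, and the title of the study describes it as a dimer-forming mutant associated with Li-Fraumeni syndrome. Each genotype received 20 µM etoposide, a topoisomerase II poison that breaks DNA, or the solvent DMSO for 24 h. Each of the 8 groups held 4 poly-A RNA-seq libraries from separate plates, so p-values measure the spread between plates. How many edited lines stand for a genotype is not in the labels, so genotype and line cannot be told apart.

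p53 is stabilized after DNA damage, binds its response elements as a tetramer and raises transcription of genes for growth arrest, DNA repair, death and metabolism. A p53 response element consists of a pair of decamer half-sites, and many elements lie in introns or far upstream of the gene. Several targets feed back on p53 itself, such as RPS27L, whose protein binds MDM2. Many other targets here are enzymes, membrane proteins and signalling proteins.

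Library totals were 18.25 to 24.19 M counts, apart from 8.05 M in replicate 2 of HET cells with etoposide. The bone lineage genes RUNX2, COL1A1 and SPARC were present in every group, with group means of at least 314 normalized counts for RUNX2, while the osteoblast genes COL1A2 and BGLAP stayed at or below 48.1. The blood cell genes PTPRC, CD3E, CD14 and HBB had group means of at most 30.1 normalized counts, with CD3E and HBB at most at 3.66. The endothelial genes PECAM1 and CDH5 stayed at or below 50.1, VWF ranged from 64.1 to 234, and the epithelial genes EPCAM, CDH1 and KRT5 stayed at or below 131, while the keratin gene KRT8 reached 2662 to 9311. Replicates 2 to 4 of HOM cells with DMSO stood apart from all other libraries. Their summed normalized counts were 32.02, 36.84 and 47.28 M, against 16.17 to 24.68 M elsewhere, and mitochondrially encoded genes took 20.68%, 21.29% and 21.92% of these sums, against 7.87% to 15.2% elsewhere. Of 45 tested members, 17, 15 and 16 lay above all 12 DMSO libraries of the other genotypes in these replicates, and 14, 13 and 16 lay below them, against 5 and 1 in replicate 1. The same share over all tested genes was not counted, so these numbers describe the libraries and not a trait of the members. Counts of members and fold changes that rest on HOM cells with DMSO are therefore given with and without replicates 2 to 4. The exceptions are values with total counts or from the authors' deposited tables. The part of these replicates in the differences beyond this was not tested. They also enter the SE of every other comparison, because the test shares 1 estimate of the spread of a gene over all groups. Exons of FBXW7, PIDD1, CCDC90B, STEAP3, ABHD4, DGKA, ABCA12, KITLG, PLCL2 and CYFIP2 overlap exons of genes on the opposite strand in GENCODE 29, as do those of 7 other members, and without a stated strand the reads of such pairs cannot be told apart. In bulk RNA, fewer expressing cells and less RNA per expressing cell cannot be told apart.

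The promoters of 4 members are shown because they hold a match to the p53 decamer half-site within the window of 250 bases before to 50 bases after the start that RefSeq gives for the gene, and because these members rose with etoposide in WT cells and responded less in KO cells. The sequences are RefSeq, assembly GRCh38.p14, written along the gene's strand, with the half-site in capitals. ABCA12 is at chr2:215138577-215138876 on the minus strand, RETSAT at chr2:85354479-85354778 on the minus strand, RPS27L at chr15:63157428-63157727 on the minus strand and RAP2B at chr3:153161976-153162275 on the plus strand.
ABCA12: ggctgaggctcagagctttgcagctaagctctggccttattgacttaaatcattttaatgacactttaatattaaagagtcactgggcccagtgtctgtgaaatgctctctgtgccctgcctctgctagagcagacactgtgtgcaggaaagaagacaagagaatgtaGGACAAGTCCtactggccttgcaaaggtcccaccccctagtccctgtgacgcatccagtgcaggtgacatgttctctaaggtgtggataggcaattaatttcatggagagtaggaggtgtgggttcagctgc
RETSAT: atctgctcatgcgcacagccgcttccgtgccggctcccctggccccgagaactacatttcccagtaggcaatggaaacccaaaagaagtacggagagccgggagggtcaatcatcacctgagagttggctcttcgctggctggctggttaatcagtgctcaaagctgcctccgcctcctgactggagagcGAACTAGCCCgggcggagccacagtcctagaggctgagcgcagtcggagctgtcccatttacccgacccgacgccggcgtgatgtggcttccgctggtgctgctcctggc
RPS27L: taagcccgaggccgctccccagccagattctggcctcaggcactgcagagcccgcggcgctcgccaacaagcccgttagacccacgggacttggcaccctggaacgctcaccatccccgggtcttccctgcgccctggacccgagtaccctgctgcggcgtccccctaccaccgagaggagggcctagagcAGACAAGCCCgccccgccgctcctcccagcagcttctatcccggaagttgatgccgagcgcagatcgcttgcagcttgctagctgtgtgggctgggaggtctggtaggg
RAP2B: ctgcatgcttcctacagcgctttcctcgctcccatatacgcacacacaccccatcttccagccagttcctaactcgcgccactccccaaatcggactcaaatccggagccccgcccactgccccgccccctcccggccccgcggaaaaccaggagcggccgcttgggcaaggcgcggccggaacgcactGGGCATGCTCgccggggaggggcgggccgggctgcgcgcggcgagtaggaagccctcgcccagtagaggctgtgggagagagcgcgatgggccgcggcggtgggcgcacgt
The half-sites start at position -82 in ABCA12, -60 in RETSAT, -59 in RPS27L and -61 in RAP2B, counted from the RefSeq start, which in none of the 4 is the gene start of GENCODE 29. Of 42 members with a RefSeq promoter, 5 held a half-site (11.9%), and the fifth was ABHD4 at position -6. The half-site is its own reverse complement in form, so 1 search covered both strands, and it was present in 6.54% of all 27305 RefSeq promoters. No member promoter held a full element of 2 half-sites with a spacer of at most 13 bases, and 8 of all promoters did. A match is a description of these letters and not a bound site.

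Etoposide raised most of the members in HET and WT cells, while in KO cells the shares that rose and fell were near those of all genes. The unit is the normalized count, which is the read count of a gene divided by the size factor of its library. Of the 47 members, 45 passed the filter, which asked for 10 or more normalized counts in 4 or more libraries. A member is said to have risen, fallen or differed where limma's moderated test, with Benjamini-Hochberg adjustment over all 16824 tested genes, gave an adjusted p under 0.05 and the fold change was at least 1.5. In KO cells 11 of 45 members rose and 7 fell, against 18.1% and 14.5% of all tested genes, which are shares near the background. With no fold minimum more members passed in KO cells in both directions. Scaling by total counts in place of the authors' size factors gave 20 rises and 6 falls in KO cells, and it put the median of all genes at 0.35 in KO, 0.20 in HET and 0.28 in WT cells on the log2 scale. The shares of all tested genes called with that scaling are not given here or below. Its counts of members therefore have no background and show only how far the calls depend on the scaling. In HET cells 33 members rose and 2 fell, against 17.5% and 12.7% of all tested genes. In WT cells 37 members rose and 1 fell, against 20.1% and 14.9% of all tested genes. The median log2 fold change of the members was 0.30 in KO cells, 1.14 in HET cells and 1.37 in WT cells, and the medians of all tested genes were 0.05, 0.01 and 0.05. All 11 members that rose in KO cells were among the 37 of WT cells (ANKRA2, DRAM1, ACER2, TMEM68, ABCA12, PGF, PTP4A1, INPP5D, IER5, SERTAD1 and BTG1). Among all tested genes, 1922 of the 3039 that rose in KO cells also rose in WT cells. ABCA12 and INPP5D held only 3 and 5 counts in the KO group with DMSO. SUSD6, SYTL1 and CYFIP2 fell in KO cells and rose in WT cells, as did 0.244% of all tested genes.

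**Figure D1:**
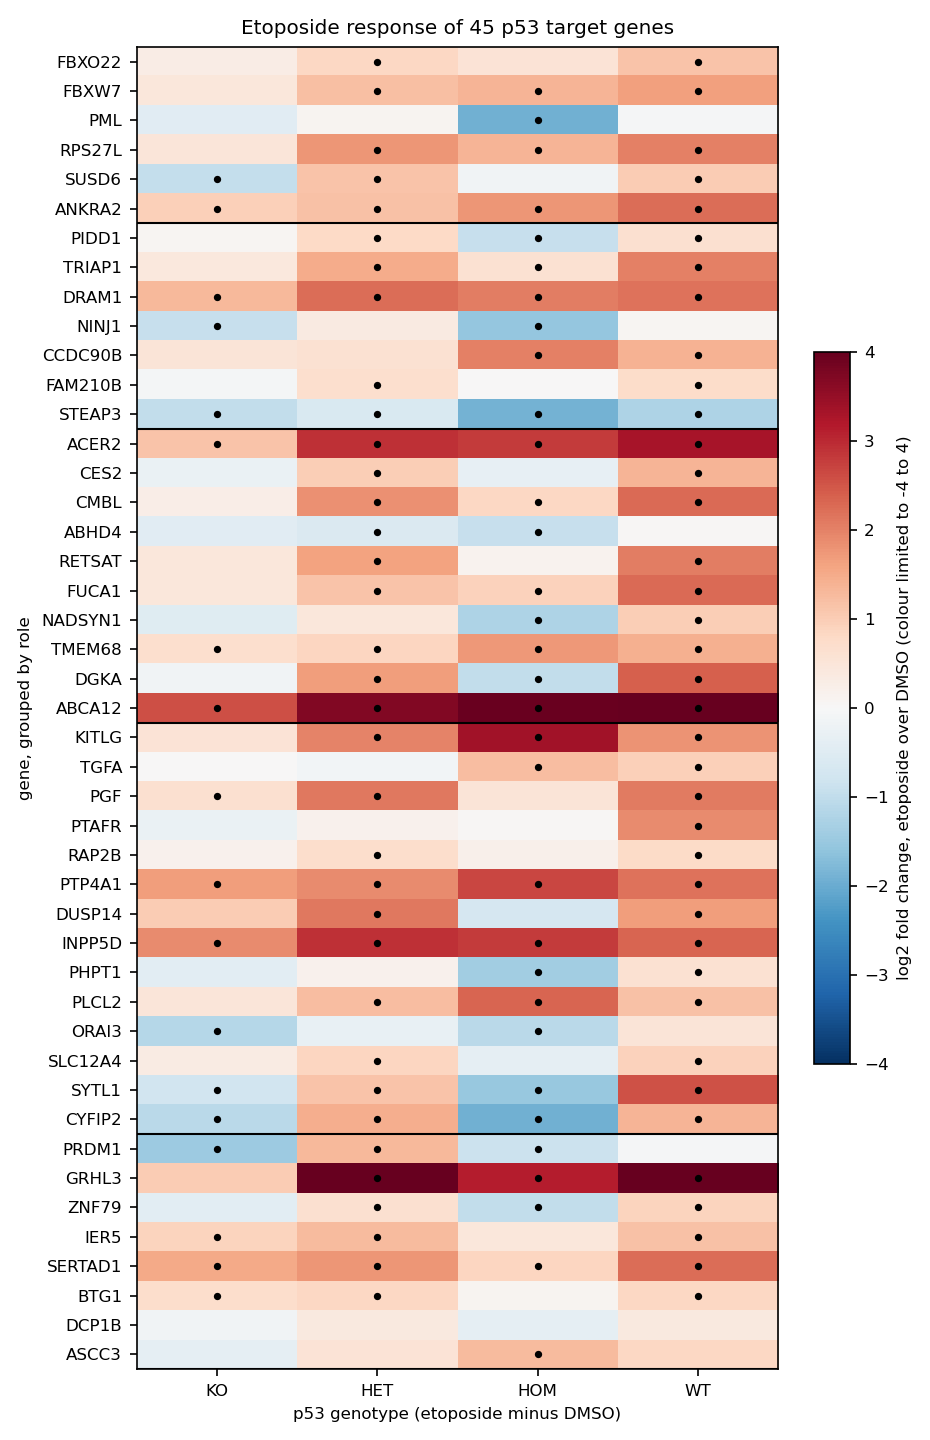
Log2 fold change of etoposide over DMSO in each p53 genotype for the 45 tested members, in rows grouped by role, with colour limited to the range -4 to 4. A dot marks a member past the test, and most rows are pale or blue in the KO column, where 11 members rose and 7 fell, and red in the HET and WT columns, where 33 and 37 rose.

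Of the 6 members that act in protein turnover or bind p53, ANKRA2 rose and SUSD6 fell in KO cells, while 5 rose in HET cells and 5 in WT cells. RPS27L, a paralog of the ribosomal protein RPS27 at chr15:63125872-63158021 (GENCODE 29, GRCh38), had 656, 722, 774 and 831 normalized counts with etoposide and 592, 500.1, 557 and 493 with DMSO in the 4 KO libraries. It had 4996, 5081, 3725 and 3893 with etoposide and 1263, 1628, 1119 and 1180 with DMSO in HET cells, and 3644, 4262, 3437 and 3718 with etoposide and 765, 1083, 952 and 898 with DMSO in WT cells. Each genotype's etoposide libraries were all above its DMSO libraries. The log2 rise was 1.77 ± 0.17 in HET and 2.03 ± 0.17 in WT cells (SE), while the KO response of 0.48 ± 0.17 was under the threshold of 1.5-fold. RPS27, whose reads could be confused with those of RPS27L, averaged 14460 normalized counts with etoposide and 14380 with DMSO in WT cells.

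FBXW7, the F-box protein that marks cyclin E and MYC for degradation, had 218, 181, 211 and 213 normalized counts with etoposide and 168, 122, 155 and 157 with DMSO in KO cells. Its WT libraries held 565, 626, 569.6 and 562 with etoposide and 169, 217, 188 and 175 with DMSO. Every KO library was below all 4 WT etoposide libraries, and the difference between the responses, KO minus WT, was -1.18 ± 0.25 on the log2 scale (limma, adjusted p = 0.000748). SUSD6, a sushi-domain membrane protein, had 746, 834, 736 and 747 normalized counts with etoposide and 1494, 1300, 1503 and 1606 with DMSO in KO cells, and 1691, 1634, 1744 and 1770 with etoposide and 1065, 844, 729 and 805 with DMSO in WT cells. The direction was opposite in these genotypes, with log2 fold changes of -0.94 ± 0.11 in KO cells and 1.0 ± 0.11 in WT cells. In DMSO SUSD6 was higher in KO than in WT cells by 0.79 ± 0.11 (limma, adjusted p = 4.62e-06). ANKRA2, an ankyrin-repeat adaptor that binds histone deacetylases, rose by 0.95 in KO, 1.16 in HET and 2.24 in WT cells on the log2 scale. FBXO22, an F-box protein of a ubiquitin ligase, rose by 0.83 in HET and 1.12 in WT cells. PML, the scaffold of nuclear bodies, did not pass in KO, HET or WT cells, with log2 fold changes of -0.44 ± 0.24, 0.11 ± 0.24 and -0.03 ± 0.24.

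Of the 7 tested members for cell death, autophagy, mitochondria and iron, 1 rose and 2 fell in KO cells, 4 rose and 1 fell in HET cells, and 5 rose and 1 fell in WT cells. STEAP3, an endosomal ferric reductase, was the member that fell in WT cells, and it fell in KO and HET cells as well. In KO cells it had 2436, 2703, 2530 and 2682 normalized counts with etoposide and 4756, 5315, 5097 and 5482 with DMSO. In WT cells it had 2478, 2224, 2624 and 2525 with etoposide and 6029, 5560, 5707 and 5865 with DMSO. No etoposide library reached its DMSO group in either genotype, and the log2 fold changes were -1.0 ± 0.11 in KO and -1.24 ± 0.11 in WT cells. HET cells had 1006, 953, 1128 and 1030 with etoposide and 1676, 1241, 1765 and 1604 with DMSO, which put both treatments below every WT library. TRIAP1, a small mitochondrial protein that restrains apoptosis, rose by 1.48 in HET and 2.0 in WT cells and did not pass in KO cells at 0.43 ± 0.14. DRAM1, a lysosomal membrane protein that promotes autophagy, rose by 1.31 in KO, 2.23 in HET and 2.18 in WT cells. PIDD1, the platform for caspase-2 activation, rose by 0.78 in HET and 0.64 in WT cells and had a log2 fold change of 0.07 ± 0.19 in KO cells. FAM210B, a mitochondrial membrane protein, rose by 0.68 and 0.72 in HET and WT cells, against -0.09 ± 0.10 in KO cells, which did not pass. NINJ1, which mediates plasma membrane rupture in dying cells, fell by 0.92 on the log2 scale in KO cells and did not pass in WT cells at 0.08 ± 0.18.

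CCDC90B, a mitochondrial coiled-coil protein, had 1260, 1277, 1095 and 1142 normalized counts with etoposide and 703, 956, 712 and 749 with DMSO in HET cells. In WT cells it had 1043, 1118, 1025 and 1053 with etoposide and 435, 539, 324 and 358 with DMSO. The HET DMSO libraries were all above the WT DMSO libraries, by 0.93 ± 0.29 on the log2 scale, and the HET response of 0.62 ± 0.29 did not pass while the WT rise was 1.38 ± 0.29. Without replicates 2 to 4 of HOM cells with DMSO in the fit, the HET response was 0.62 ± 0.13. The HET etoposide libraries were all above the HET DMSO libraries, so missing the threshold does not show that HET cells did not respond. SPATA18, the mitochondrial quality control protein also called Mieap, did not pass the filter. It was at 0 in every DMSO library of KO, HET and HOM cells and in 3 of the WT ones, and averaged 3.94 in KO, 6.45 in HET, 5.07 in HOM and 5.41 normalized counts in WT cells with etoposide. At 3 counts a library would show 2.30 to 6.37 normalized counts, so these levels are close to what the depth can show, and this floor covers counting error only.

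Of 10 enzymes and transporters of lipids, sugars and cofactors, 3 rose in KO cells, 8 rose and 1 fell in HET cells, and 9 rose in WT cells. ACER2, a Golgi ceramidase at chr9:19409059-19452020, had 33.2, 58.2, 54.4 and 57.2 normalized counts with etoposide and 17.5, 21.4, 23.8 and 26.7 with DMSO in KO cells. HET cells had 417, 369, 432 and 435 with etoposide and 44.6, 55.5, 50.7 and 65.5 with DMSO. WT cells had 315, 366, 294 and 349 with etoposide and 33.4, 38.9, 34.8 and 25.5 with DMSO. ACER2 therefore rose in all of these genotypes, but every KO etoposide library was below every HET and WT etoposide library. The log2 fold changes were 1.13 ± 0.23 in KO, 2.92 ± 0.23 in HET and 3.29 ± 0.23 in WT cells, and the difference KO minus WT was -2.16 (limma, adjusted p = 1.41e-05).

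DGKA, a kinase that turns diacylglycerol into phosphatidic acid, had 237, 183, 197 and 174 normalized counts with etoposide and 200.5, 242, 222 and 210.5 with DMSO in KO cells. In HET cells it had 669.7, 697, 702 and 639.7 with etoposide and 204, 187, 221 and 231 with DMSO. In WT cells it had 1635, 1494, 1765 and 1732 with etoposide and 321, 283, 289.7 and 368 with DMSO. The rise was 1.68 ± 0.15 in HET and 2.39 ± 0.15 in WT cells on the log2 scale, while the KO value of -0.15 ± 0.15 did not pass, and the etoposide libraries of the 3 genotypes did not overlap. FUCA1, a lysosomal fucosidase, had 1813, 1954, 1730 and 1722 normalized counts with etoposide and 815, 832, 818 and 788 with DMSO in HET cells, and 2113, 2071, 1975 and 1929 with etoposide and 375, 437, 454 and 412 with DMSO in WT cells. The HET DMSO libraries were above all WT DMSO libraries, by 0.96 ± 0.10, and the difference between the responses, HET minus WT, was -1.12 (limma, adjusted p = 8.47e-06).

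ABCA12, a lipid transporter of keratinocytes and the member with the half-site at -82, had 7.38, 8.68, 8.93 and 5.04 normalized counts with etoposide in KO cells, and in DMSO 3 KO libraries were at 0 and the fourth had 2.85, so no fold is given. HET cells had 50.8, 51.3, 42.2 and 44.9 with etoposide and 1.75, 4.34, 1.75 and 3.54 with DMSO. WT cells had 97.4, 102, 83.6 and 97.3 with etoposide and 4.77, 2.65, 1.93 and 2.04 with DMSO, a rise of 4.70 ± 0.35 on the log2 scale. The etoposide libraries were lowest in KO cells, higher in HET cells and highest in WT cells, with no overlap. The hydrolases CES2 and CMBL rose by 0.99 and 1.84 in HET cells and by 1.35 and 2.26 in WT cells, and their KO values of -0.27 ± 0.07 and 0.27 ± 0.12 did not pass. RETSAT, which saturates retinol, rose by 1.60 in HET and 2.04 in WT cells. NADSYN1, the NAD synthetase, did not pass in HET cells at 0.45 ± 0.16 and rose by 0.99 in WT cells. TMEM68, an acyltransferase of glycerolipids, rose by 0.68 in KO, 0.85 in HET and 1.41 in WT cells. ABHD4, a hydrolase of N-acyl phospholipids with a half-site at position -6, fell in HET cells, with 671, 705, 796 and 704 normalized counts with etoposide and 1109, 949.9, 1198 and 1073 with DMSO. It did not pass in WT cells at 0.05 ± 0.12.

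Of 14 ligands, receptors and signalling proteins, 3 rose and 3 fell in KO cells, 10 rose in HET cells and 13 rose in WT cells. The 3 that rose in KO cells were the growth factor PGF, the phosphatase PTP4A1 and the lipid phosphatase INPP5D, and the 3 that fell were ORAI3, SYTL1 and CYFIP2. SYTL1, a synaptotagmin-like effector of RAB27 vesicles, had 46.1, 55.6, 52.8 and 37.0 normalized counts with etoposide and 69.1, 82.5, 75.1 and 100.2 with DMSO in KO cells. WT cells had 588, 535, 658 and 515 with etoposide and 127, 90.2, 85.9 and 90.9 with DMSO. SYTL1 thus moved in opposite directions, by -0.76 ± 0.23 in KO and 2.54 ± 0.23 in WT cells, and the responses differed by -3.31 (limma, adjusted p = 9.02e-09). HET cells had 27.1, 34.9, 29.2 and 30.7 with etoposide and 12.2, 11.3, 19.2 and 11.5 with DMSO, below every WT library of the same treatment and also below every KO one. CYFIP2, a subunit of the WAVE actin regulatory complex, had 533, 605, 558 and 553 normalized counts with etoposide and 1038, 1336, 1043 and 1354 with DMSO in KO cells. WT cells had 4692, 4366, 5012 and 4703 with etoposide and 2093, 1501, 1734 and 2002 with DMSO. Its log2 fold change was -1.07 ± 0.15 in KO, 1.45 ± 0.15 in HET and 1.37 ± 0.15 in WT cells.

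PTP4A1, a prenylated tyrosine phosphatase, had 2469, 2187, 2668 and 2800 normalized counts with etoposide and 902, 749, 849 and 693 with DMSO in KO cells, the largest rise there after the low-level genes ABCA12 and INPP5D. WT cells had 3997, 4676, 3783 and 3813 with etoposide and 815, 1071, 1021 and 759.9 with DMSO. The rises of 1.67 ± 0.19 in KO and 2.16 ± 0.19 in WT cells did not differ past the threshold, with a difference of -0.49 ± 0.27 (limma, adjusted p = 0.236). ORAI3, a calcium channel subunit, had 119.8, 144, 145 and 131 normalized counts with etoposide and 265, 277, 288 and 368 with DMSO in KO cells, and 627, 575, 644 and 562 with etoposide and 498, 399.9, 372 and 440.2 with DMSO in WT cells. It fell by 1.13 in KO cells, and it was the 1 member of the 14 that did not pass in WT cells, at 0.50 ± 0.12.

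INPP5D, the inositol phosphatase SHIP1 of blood cells, had 12.9, 7.82, 6.49 and 4.20 normalized counts with etoposide and 0.973, 2.14, 0.95 and 1.11 with DMSO in KO cells, where the DMSO group held 5 counts in all. In WT cells the levels were 148, 150.5, 161 and 174 with etoposide and 40.0, 23.0, 27.0 and 36.8 with DMSO, above every KO library. The log2 rises of 1.89 ± 0.31 in KO and 2.31 ± 0.31 in WT cells differed by -0.43 ± 0.43, which did not pass, and in DMSO the KO level differed from the WT level by -3.83 on the log2 scale. PTAFR, the receptor for platelet-activating factor, had 27.9, 24.6, 48.7 and 38.6 normalized counts with etoposide and 30.6, 30.4, 29.8 and 29.2 with DMSO in HET cells. In WT cells it had 87.3, 85.3, 101 and 106 with etoposide and 14.3, 31.9, 34.8 and 22.5 with DMSO, and the WT etoposide libraries were above all HET libraries and the WT DMSO libraries. The HET value of 0.17 ± 0.25 did not pass, the WT rise was 1.91 ± 0.25, and the responses differed by -1.74 (limma, adjusted p = 0.00161).

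PGF, placental growth factor, rose by 0.64 ± 0.19 in KO, 2.12 ± 0.19 in HET and 2.07 ± 0.19 in WT cells on the log2 scale. TGFA, a ligand of the EGF receptor, had 1305, 1294, 1378 and 1309 normalized counts with etoposide and 1547, 1326, 1374 and 1416 with DMSO in HET cells, and 1521, 1557, 1405 and 1452 with etoposide and 712, 928, 720.3 and 730.3 with DMSO in WT cells. The HET DMSO libraries overlapped with the WT etoposide libraries, and the HET value of -0.10 ± 0.18 did not pass while the WT rise was 0.95 ± 0.18. KITLG, the ligand of the KIT receptor, rose by 1.98 in HET and 1.80 in WT cells, and DUSP14, a phosphatase of MAP kinases, by 2.12 and 1.68. PLCL2, a phospholipase C-like protein without catalytic activity, rose by 1.22 in HET and 1.18 in WT cells, the potassium chloride cotransporter SLC12A4 by 0.85 and 0.92, and the small GTPase RAP2B by 0.70 and 0.75. PHPT1, a phosphohistidine phosphatase, did not pass in HET cells at 0.16 ± 0.19 and rose by 0.61 in WT cells.

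Of 8 tested members that act in transcription, growth arrest and RNA, 3 rose and 1 fell in KO cells, 6 rose in HET cells and 5 rose in WT cells. GRHL3, a grainyhead-like transcription factor of epidermis at chr1:24319322-24364482, had 12.9, 6.08, 14.6 and 9.25 normalized counts with etoposide and 4.87, 5.35, 4.75 and 3.34 with DMSO in KO cells. HET cells had 133, 159.9, 184 and 159.9 with etoposide and 5.25, 3.47, 5.25 and 9.73 with DMSO. WT cells had 385, 353, 382 and 384 with etoposide and 3.81, 4.42, 0 and 7.15 with DMSO. These DMSO libraries held at most 9.73, and with etoposide the KO libraries were lowest, the HET libraries higher and the WT libraries highest, with no overlap. GRHL3 had the largest WT rise of the 45 members, 6.62 ± 0.46, and the difference between the responses, KO minus WT, was -5.60 ± 0.64 (limma, adjusted p = 1.72e-07). It passed the filter only through its etoposide levels, and its WT DMSO group held 16 counts in all. The size of its rise therefore depends on the 1 added to each normalized count before the log2.

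PRDM1, the repressor Blimp-1, had 82.0, 84.2, 111 and 91.6 normalized counts with etoposide and 238, 251, 272 and 254 with DMSO in KO cells, the largest fall there. HET cells had 87.2, 100.5, 103 and 102 with etoposide and 47.2, 35.6, 43.7 and 31.0 with DMSO. WT cells had 228, 199.7, 209 and 177 with etoposide and 227, 213, 182 and 212 with DMSO. PRDM1 fell by 1.46 in KO cells, rose by 1.31 in HET cells, whose DMSO libraries were the lowest of the 3 genotypes, and did not pass in WT cells at -0.04 ± 0.15. SERTAD1, a binding partner of CDK4 and E2F, had 1406, 1638, 1503 and 1324 normalized counts with etoposide and 460.4, 514, 501 and 599 with DMSO in KO cells, and 3795, 3470, 4138 and 3519 with etoposide and 748, 756, 893 and 802 with DMSO in WT cells. It rose in both, by 1.5 ± 0.14 in KO and 2.22 ± 0.14 in WT cells, and every WT etoposide library was above every KO one. IER5, an immediate early protein that acts on heat shock factor 1, rose by 0.88, 1.25 and 1.18 in KO, HET and WT cells, and the antiproliferative factor BTG1 rose by 0.71, 0.84 and 0.83. ZNF79, a zinc finger protein, rose by 0.63 in HET and 0.88 in WT cells. The decapping factor DCP1B and ASCC3, a helicase of the ASC-1 complex, did not pass in KO, HET or WT cells, with WT values of 0.40 ± 0.08 and 0.81 ± 0.37. The WT libraries of ASCC3 did not overlap, at 708 to 851 normalized counts with etoposide and 359.5 to 545 with DMSO. Without replicates 2 to 4 of HOM cells with DMSO in the fit, its WT value was 0.81 ± 0.12. HES2, a basic helix-loop-helix repressor, did not pass the filter and had group means of 0.438 to 10.3 normalized counts.

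**Figure D2:**
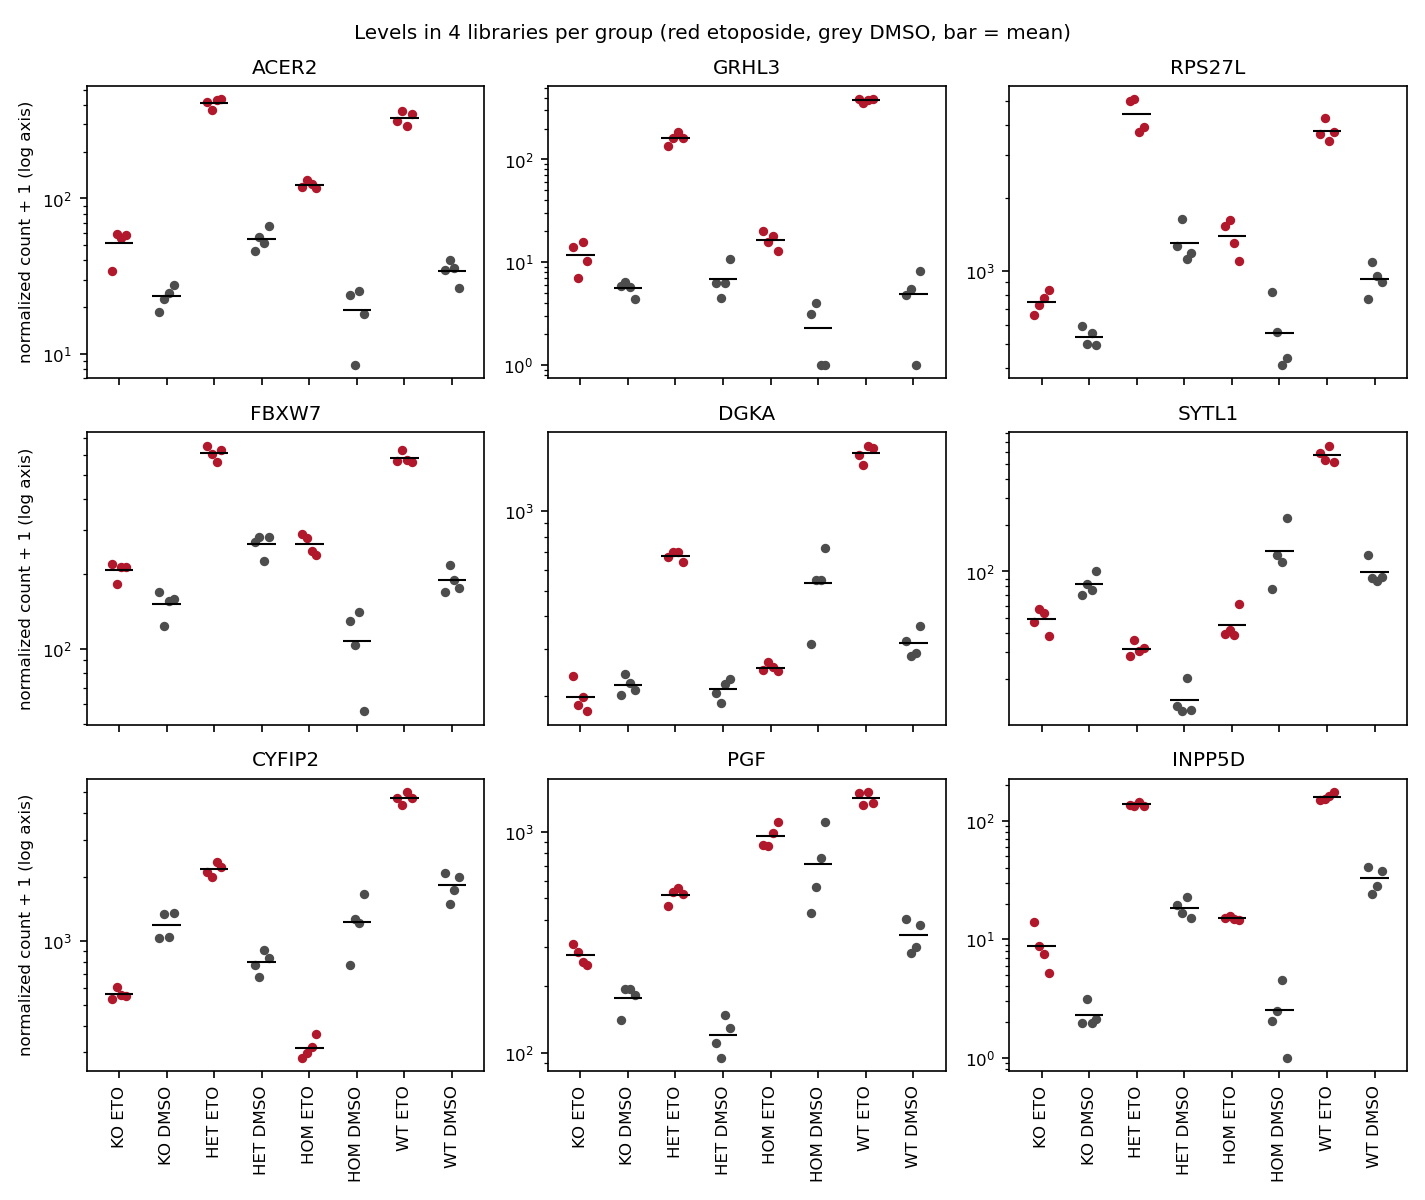
Normalized count plus 1, on a log axis, of 9 members in the 4 libraries of each group, with etoposide in red, DMSO in grey and a bar at the group mean. ACER2, GRHL3, RPS27L and FBXW7 lie high in HET and WT cells with etoposide, DGKA, SYTL1 and CYFIP2 lie highest in WT cells with etoposide, and INPP5D is near 0 in KO and HOM cells with DMSO.

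How far the response of KO cells departed from that of WT cells is given by the difference between responses, KO minus WT. Because genotype and line cannot be told apart, the need for p53 itself was not tested. This difference was below 0 past the threshold in 29 of 45 members and above 0 in none, against 8.13% and 7.11% of all tested genes. The count above 0 was also 0 at an unadjusted p under 0.05 and with limma's voom on the recovered counts. The median difference of the members was -1.18 on the log2 scale, against -0.04 for all tested genes. The shares by role were 5 of 6 for protein turnover, 4 of 7 for death and mitochondria, 8 of 10 for metabolic enzymes, 8 of 14 for signalling and 4 of 8 for transcription. After GRHL3 and SYTL1, the members furthest below 0 were DGKA (-2.54 ± 0.22), CYFIP2 (-2.44 ± 0.21), ACER2 and PTAFR (-2.16 ± 0.35). Of the 11 members that rose in KO cells, PTP4A1, INPP5D, IER5, BTG1 and TMEM68 had differences that did not pass, at -0.49 ± 0.27, -0.43 ± 0.43, -0.29 ± 0.11, -0.12 ± 0.15 and -0.72 ± 0.31. Replicates 2 to 4 of HOM cells with DMSO enter these SE, although neither genotype uses them. For TMEM68 the SE of the WT response was 0.22 with them and 0.15 without them. Missing the threshold therefore does not show that the responses were equal.

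In etoposide itself, 36 of 45 members were lower in KO than in WT cells and none was higher, against 15% and 11.7% of all tested genes, and none was higher at an unadjusted p under 0.05 or with voom. The median difference was -1.36 on the log2 scale for the members and -0.03 for all tested genes. The median member stood at 39% of its WT level in KO cells, and 31 of 45 were under 50% of that level, against 8.99% of all tested genes. GRHL3 stood at 2.85% of its WT level, INPP5D at 4.96% and SYTL1 at 8.34%. The 9 members that did not pass were STEAP3, IER5, KITLG, ABHD4, RAP2B, DCP1B, TMEM68, PIDD1 and DUSP14, with differences of -1.13 to 0.07.

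**Figure D3:**
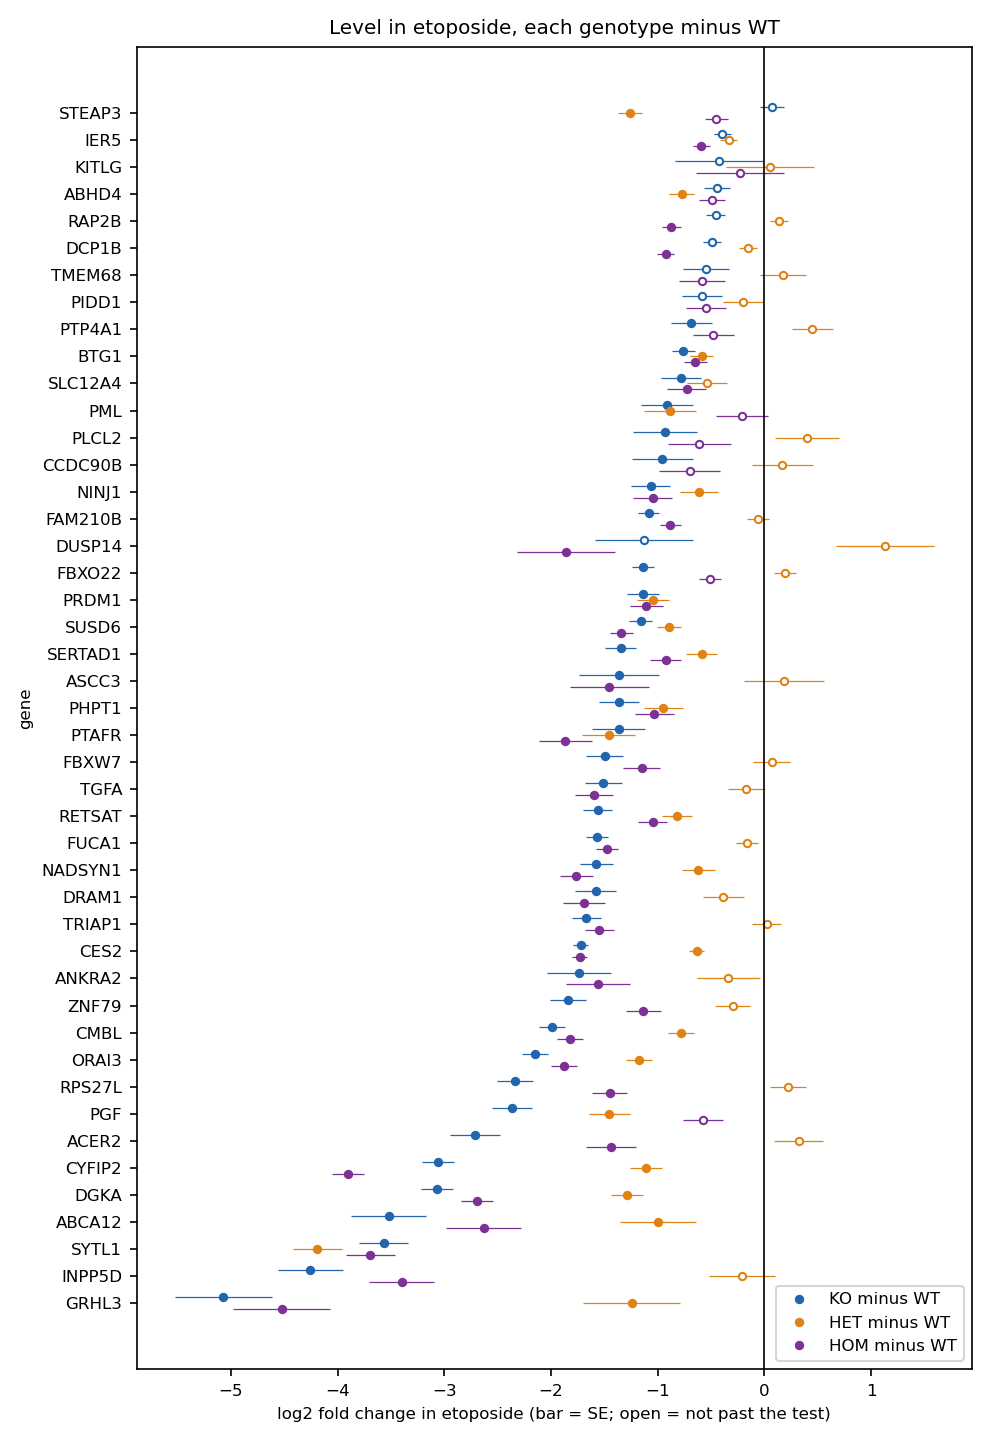
Log2 difference in etoposide of KO, HET and HOM cells from WT cells for the 45 tested members, sorted by the KO value, with bars of 1 SE and open symbols for members that did not pass. The KO and HOM symbols lie left of 0 for most members, with 36 and 34 past the test, and the HET symbols lie closer to 0, with 21 past the test.

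In HET cells most members that rose in WT cells rose as well. Of the 37 members that rose in WT cells, 32 also rose in HET cells. Among all tested genes, 2170 of the 3389 that rose in WT cells also rose in HET cells. The difference between responses, HET minus WT, was above 0 in 2 members and below 0 in 7, against 2.97% and 1.78% of all tested genes. The 2 were PRDM1 (1.35 ± 0.21) and STEAP3 (0.64 ± 0.15), whose fall was smaller in HET cells. The 7 were PTAFR, SYTL1, FUCA1, TGFA, ORAI3, DGKA and ABHD4, with differences of -1.74 to -0.64. For SYTL1 the difference was -1.41 ± 0.32 (limma, adjusted p = 0.00611).

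Levels in etoposide were nevertheless lower in HET than in WT cells for 21 of 45 members and higher for none, against 13.2% and 10.1% of all tested genes. Scaling by total counts gave 11 lower and 1 higher, with the median of all genes at 0.24. At an unadjusted p under 0.05, 2 members were higher, and voom called 1 higher. The median member stood at 76.7% of its WT level, and 10 of 45 stood under 50%, against 6.68% of all tested genes. SYTL1 was at 5.31% of its WT level and STEAP3 at 41.8%, while RPS27L was at 117%, ACER2 at 125% and FBXW7 at 105%. In DMSO 7 members were higher and 10 lower in HET than in WT cells, against 16.1% and 16.4% of all tested genes, which is a share near the background, and scaling by total counts gave 11 higher and 8 lower with the median of all genes at 0.26. SYTL1 (-2.79 ± 0.23), PRDM1 (-2.39 ± 0.15) and STEAP3 (-1.89 ± 0.11) were the furthest below WT in DMSO, in the libraries given above.

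In HOM cells most members stayed below their WT level with etoposide, in a comparison that uses the same WT libraries as those of KO and HET cells. In etoposide 34 of 45 members were lower in HOM than in WT cells and none was higher, against 14.7% and 14% of all tested genes, and none was higher at an unadjusted p under 0.05 or with voom. The median member stood at 45.2% of its WT level, and 27 of 45 stood under 50%, against 8.39% of all tested genes. GRHL3 had 19.0, 14.6, 16.9 and 11.9 normalized counts in HOM cells, against 385, 353, 382 and 384 in WT cells, a difference of -4.52 ± 0.46 on the log2 scale. CYFIP2 had 282, 296, 317 and 364 in HOM cells, against 4692, 4366, 5012 and 4703 in WT cells, a difference of -3.90 ± 0.15. Neither gene's HOM libraries came near the WT libraries. SYTL1 (-3.69 ± 0.23), INPP5D (-3.40 ± 0.31) and DGKA (-2.69 ± 0.15) followed in size. All 8 tested members of the transcription and RNA group were lower, as were 8 of the 10 metabolic enzymes.

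A direct comparison of HOM with KO cells in etoposide asks whether these transcripts were more abundant in the HOM cells than in the KO cells. There 7 of 45 members were higher and 1 was lower, against 7.47% and 4.67% of all tested genes, and 37 did not pass. PGF had 868, 860.3, 982 and 1099 normalized counts in HOM cells, against 309.8, 285, 256 and 247 in KO cells, a difference of 1.79 ± 0.19 on the log2 scale (limma, adjusted p = 3.19e-08). ACER2 had 118, 129.8, 123 and 116 in HOM cells, against 33.2, 58.2, 54.4 and 57.2 in KO cells, a difference of 1.28 ± 0.23 (limma, adjusted p = 0.000153). The HOM libraries were all above the KO libraries for both genes. RPS27L was higher by 0.89 ± 0.17, INPP5D by 0.86 ± 0.31, ZNF79 by 0.71 ± 0.16, PML by 0.70 ± 0.24 and FBXO22 by 0.63 ± 0.10. The value of INPP5D rests on 70 counts in HOM and 36 in KO cells. CYFIP2 was the 1 lower member, with 282, 296, 317 and 364 normalized counts in HOM cells and 533, 605, 558 and 553 in KO cells, a difference of -0.84 ± 0.15. Among the members that did not pass, the difference was -0.01 ± 0.07 for CES2, 0.17 ± 0.12 for CMBL and 0.09 ± 0.10 for FUCA1, and missing the threshold does not show that the levels were equal. The median difference was 0.12 for the members and 0.01 for all tested genes.

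**Figure D4:**
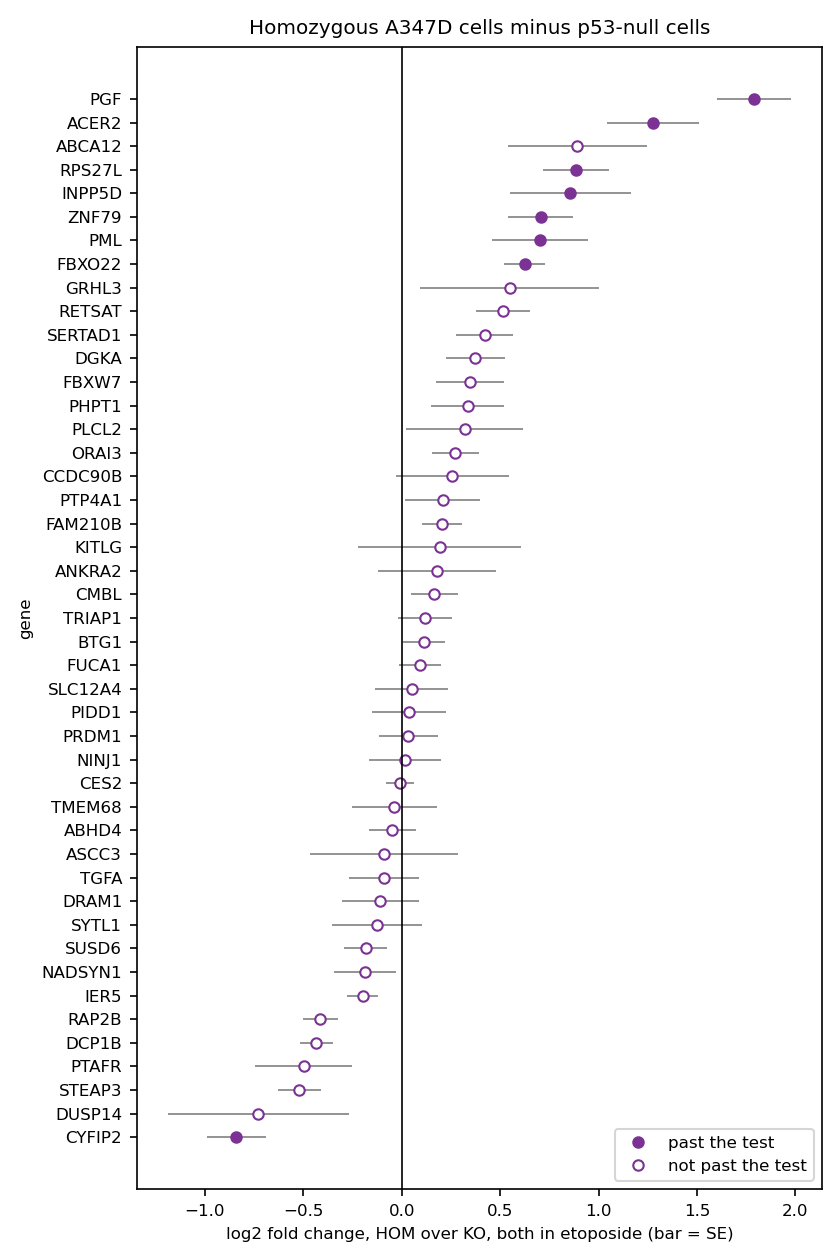
Log2 difference of HOM over KO cells, both in etoposide, for the 45 tested members, with bars of 1 SE and filled symbols for the 8 members past the test. PGF and ACER2 lie furthest to the right, at 1.79 and 1.28, CYFIP2 is the filled symbol furthest to the left, at -0.84, and most symbols lie near 0.

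The etoposide response within HOM cells rests on the DMSO libraries that stood apart. With all 4 of them 19 members rose and 13 fell, against 37.2% and 28.5% of all tested genes. With replicate 1 alone as the DMSO library 18 members rose and 7 fell, against 20.9% and 17.3% of all tested genes, and the lone library was assumed to vary like the other groups. Scaling by total counts, with all libraries, gave 31 rises and 3 falls, and it put the median of all genes at 1.13 on the log2 scale. KITLG had 248, 252, 236 and 231 normalized counts with etoposide and 62.9, 20.9, 42.0 and 4.25 with DMSO in HOM cells, so that replicate 1 of the DMSO group was the highest of its group and closest to the WT mean of 85.3. The rise was 3.36 ± 0.41 with all libraries and 1.93 ± 0.31 without replicates 2 to 4. ACER2 had 118, 129.8, 123 and 116 with etoposide and 23.1, 7.47, 24.5 and 17.0 with DMSO, a rise of 2.81 ± 0.23 and, without replicates 2 to 4, 2.35 ± 0.25. PML had 1772, 1708, 1974 and 2474 with etoposide and 3928, 6312, 9483 and 12570 with DMSO, a log2 fold change of -1.91 ± 0.24 and, without replicates 2 to 4, of -1.0 ± 0.29. CYFIP2 had 282, 296, 317 and 364 with etoposide and 772, 1265, 1216 and 1663 with DMSO, a log2 fold change of -1.92 ± 0.15 and, without them, of -1.30 ± 0.17. ABCA12 was at 0 in all 4 HOM DMSO libraries and averaged 15.5 normalized counts with etoposide, at least 3.22-fold higher than a floor of 3 counts per library. For GRHL3 the DMSO group held 4 counts in all, and the rise was 3.13 ± 0.46 with all libraries and 2.40 ± 0.62 without replicates 2 to 4.

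**Figure D5:**
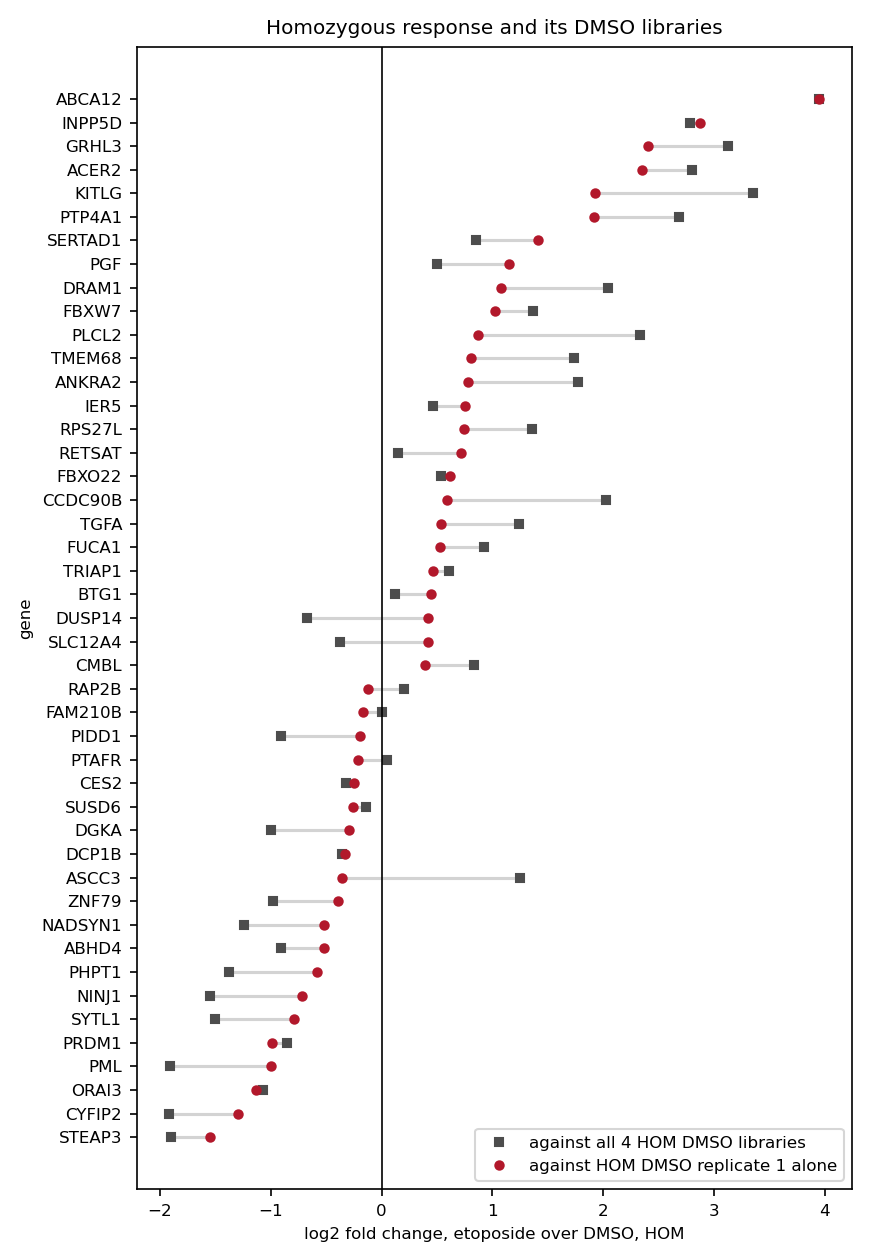
Log2 fold change of etoposide over DMSO in HOM cells for the 45 tested members, against all 4 DMSO libraries (grey squares) and against DMSO replicate 1 alone (red circles), joined by a line. ABCA12, INPP5D, ACER2 and PTP4A1 stay to the right of 0 and STEAP3 and CYFIP2 to the left under both, while ASCC3 changes side, with 1.25 against all libraries and -0.36 against replicate 1 alone.

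The difference between responses, HOM minus WT, was below 0 in 31 members and above 0 in 2, against 23.9% and 26.2% of all tested genes. Without replicates 2 to 4 of HOM cells with DMSO it was below 0 in 31 and above 0 in none, against 9.48% and 8.97% of all tested genes, and none was above 0 at an unadjusted p under 0.05. Scaling by total counts, with all libraries, gave 18 below and 6 above, and it put the median of all genes at 0.78. SYTL1 had -4.05 ± 0.32 on the log2 scale with all libraries and -3.33 ± 0.33 without replicates 2 to 4, from 38.0, 40.6, 37.6 and 60.4 normalized counts with etoposide and 75.5, 127, 114 and 221 with DMSO in HOM cells. GRHL3 had -3.50 ± 0.64 and, without them, -4.22 ± 0.74. The 2 members above 0 with all libraries were KITLG and PLCL2, and neither passed without replicates 2 to 4, where KITLG had 0.12 ± 0.36 and PLCL2 -0.31 ± 0.27. PLCL2 had 53, 55.2, 59.8 and 50.2 normalized counts with etoposide and 29.4, 5.97, 12.3 and 4.25 with DMSO in HOM cells. For HOM minus KO the difference between responses was above 0 in 15 members and below 0 in 12 with all libraries, against 24.4% and 19.3% of all tested genes, and scaling by total counts gave 26 and 1 with the median of all genes at 0.73. Without replicates 2 to 4 it was above 0 in 3, against 1.07% of all tested genes, and below 0 in none, against 0.779%, although 2 were below 0 at an unadjusted p under 0.05. The 3 were ACER2 (1.22 ± 0.30), KITLG (1.37 ± 0.36) and SUSD6 (0.68 ± 0.18). FBXW7 had 0.91 ± 0.25 with all libraries and 0.57 ± 0.19 without them, and its HOM levels were 288, 278, 245 and 237 with etoposide and 128, 103, 140.2 and 55.2 with DMSO. PHPT1, with 1642, 1587, 1723 and 1911 with etoposide and 2559, 4347, 4617 and 7658 with DMSO in HOM cells, had -0.95 ± 0.26 with all libraries and -0.15 ± 0.21 without them.

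In DMSO KO cells differed from WT cells in 10 of 45 members. Of these, 2 were higher and 8 lower, against 2.75% and 5.59% of all tested genes. The lower ones were INPP5D (-3.83 ± 0.31), ABCA12, PGF (-0.94 ± 0.19), RPS27L (-0.78 ± 0.17), DRAM1 (-0.71 ± 0.19), BTG1 (-0.64 ± 0.11), SERTAD1 (-0.63 ± 0.14) and CYFIP2 (-0.62 ± 0.15). ABCA12 held 3 counts in the KO group and 12 in the WT group, and it passed the filter only through its etoposide levels. PGF had 139, 194, 192 and 180.4 normalized counts in KO cells, against 401, 282, 300.3 and 375 in WT cells, with no overlap. The higher ones were SUSD6 and PTAFR (0.80 ± 0.25). In HOM cells with DMSO 8 members were higher and 16 lower than in WT cells, against 20% and 27.6% of all tested genes, and scaling by total counts gave 1 and 26 with the median of all genes at -0.58. Without replicates 2 to 4 none was higher (3 at an unadjusted p under 0.05) and 3 were lower, against 1.03% and 3.51%, namely INPP5D (-3.96 ± 0.36), CYFIP2 (-1.24 ± 0.17) and TGFA (-1.18 ± 0.15). TGFA had 338, 255, 175 and 121 normalized counts in the 4 HOM libraries, all below the WT libraries. PIDD1 had 976, 1513, 1684 and 2629 and ASCC3 353, 82.2, 198 and 29.7 in HOM cells, against 919.8, 692, 671 and 932 and 398, 545, 432 and 359.5 in WT cells, and replicates 2 to 4 lay further from the WT libraries than replicate 1 did. Compared with KO cells in DMSO, HOM cells had 12 members higher and 11 lower with all libraries, against 22.6% and 28.6%, and 5 and 20 with total counts, which put the median of all genes at -0.54. Without replicates 2 to 4 they had 3 higher and 4 lower, against 4.37% and 4.29%. The 3 were PGF (1.28 ± 0.21), PML (1.26 ± 0.29) and ZNF79 (0.69 ± 0.20), and the 4 were KITLG (-1.17 ± 0.31), SUSD6 (-0.87 ± 0.16), CYFIP2 (-0.62 ± 0.17) and TGFA (-0.60 ± 0.15).

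Another list held 42 better studied p53 targets, with CDKN1A, MDM2, BBC3 and GDF15 among them. It too was chosen with earlier results of these data known. Of its 40 tested genes, 16 rose and 1 fell in KO cells, 32 rose and none fell in HET cells, and 37 rose and none fell in WT cells, where 1 in each of HET and WT cells was lower at an unadjusted p under 0.05. In etoposide 33 of the 40 were lower in KO than in WT cells, 12 in HET than in WT cells and 36 in HOM than in WT cells, and none was higher (0, 2 and 0 at an unadjusted p under 0.05). Against KO cells in etoposide, HOM cells had 5 of the 40 higher and 2 lower. CDKN1A, the p21 inhibitor of cyclin-dependent kinases, averaged 8875 normalized counts with etoposide in KO cells, 17880 in HET cells, 7526 in HOM cells and 34110 in WT cells. Whether the members differed from that list was not tested.

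The authors' deposited tables hold 6 comparisons of genotypes within a treatment. In the authors' deposited tables all 36 members called lower in KO cells with etoposide had the same direction and an adjusted p under 0.05, as had all 34 of HOM against WT and all 8 of HOM against KO with etoposide. In DMSO the authors' deposited tables gave the same direction for all 10, 24 and 23 members called for KO against WT, HOM against WT and HOM against KO, with an adjusted p under 0.05 for 9, 23 and 22. The member of KO against WT that missed it was ABCA12 (DESeq2, adjusted p = 0.2045). Only members already called above were compared in this way. Some members not called above also had an adjusted p under 0.05 in the authors' deposited tables. With etoposide these included RAP2B, DCP1B and IER5, lower in KO than in WT cells. For HOM against KO they included STEAP3 (-0.52), DCP1B (-0.44) and RAP2B (-0.41), which were lower, and ABCA12 (1.04), which was higher. These tables rest on the same libraries and are not independent of the counts above.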

How the data were processed

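Poly-A RNA of 32 libraries, 4 in each of 8 groups, was measured. Per the submitters' processing notes the authors used kallisto, DESeq2 and the GRCh38 (hg38) build, with versions not given in the sources used here. In the matrix, the deposited values are log2 values of a variance-stabilizing transform. Undoing the transform gave counts divided by size factors, whose mean per gene matched the mean signal in the authors' deposited tables within a relative difference of 4.47e-14, and whole reads were recovered for 100% of values in every library within 0.01 counts. The authors' deposited tables also hold log2 fold changes and p-values of 6 comparisons.

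Values were taken as log2 of the normalized count plus 1, over the 16824 of 35587 genes that reached 10 normalized counts in 4 or more libraries. One limma fit (version 3.58.1, R 4.3.3, trended moderation) over all 32 libraries estimated the 8 group means and left 24 residual degrees of freedom, and 16 contrasts were tested two-sidedly with Benjamini-Hochberg adjustment over all tested genes within each contrast. Genes were called at an adjusted p under 0.05 together with a change of 1.5-fold or more. The fit and its calls were tested on simulated data. Tables were handled in Python 3.11.15 with pandas 2.3.3 and numpy 2.4.6. In addition, 12 alternatives and 32 fits that each left out 1 library were run. The alternatives were a pseudocount of 5, no filter, a filter of 50 normalized counts, the transformed values as deposited, total-count scaling, quantile normalization, voom on the recovered counts, array weights, no fold minimum, the compared groups alone, a replicate block, and leaving out 3 libraries of HOM cells with DMSO.

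The members, their roles and the list of other p53 targets were chosen with earlier results of these data known. Any member could be named. Values by library, in the groups of the comparison concerned, were given for the 27 members with the largest changes in each contrast (5 rises and 3 falls in WT cells, 2 in each direction elsewhere), among those called, with a mean of at least 50 normalized counts in a compared group and no overlap between groups. Total counts of 18.25 to 24.19 M, and 8.05 M in 1 library, mean that 3 counts correspond to 2.30 to 6.37 normalized counts, and such floors cover counting error only. Replicates of a group differed by more than sampling noise, with a chi-square per degree of freedom of at least 1.85, so none was counted as a duplicate. Same-numbered plates did not deviate together throughout, with correlations of -0.18 to 0.36. The strand of the counting is not stated in the sources used here. Gene positions are from GENCODE 29, in which all 47 members were matched by name, and promoters are from RefSeq on GRCh38.p14, in which 42 were. The level of the edited gene is not reported here.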

Additional observations from a re-analysis of the deposited data

Results flagged for a closer look

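The etoposide response of several members differed between genotypes by a direct test of the difference. In KO minus WT, GRHL3 had -5.60 on the log2 scale (limma, adjusted p = 1.72e-07) and SYTL1 -3.30 (adjusted p = 9.02e-09), and in both genes all 4 KO etoposide libraries were below all 4 WT etoposide libraries. In HET minus WT, the repressor gene PRDM1 had 1.35 (limma, adjusted p = 0.000103), the ferric reductase gene STEAP3 0.64 (adjusted p = 0.00921), the receptor gene PTAFR -1.74 (adjusted p = 0.00161) and SYTL1 -1.40 (adjusted p = 0.00611). In HOM minus WT with all libraries, KITLG had 1.55 (limma, adjusted p = 0.0252) and PLCL2 1.15 (adjusted p = 0.0215), and without replicates 2 to 4 of HOM cells with DMSO the values were 0.12 and -0.31. SYTL1 had -4.05 (limma, adjusted p = 1.28e-10) and GRHL3 -3.50 (adjusted p = 7.64e-05) with all libraries, and -3.33 and -4.22 without those replicates. In HOM minus KO, ACER2 had 1.68 (limma, adjusted p = 0.000948), FBXW7 0.91 (adjusted p = 0.00504), PML -1.47 (adjusted p = 0.00262) and PHPT1 -0.95 (adjusted p = 0.00572). Without those replicates they had 1.22, 0.57, -0.56 and -0.15, of which that of ACER2 passed the test.

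Among the members given library by library, 15 of 216 groups held 1 library far from the other 3, where chance flags about 1 in 20 groups. Above their group stood FBXW7 with 626 normalized counts and ASCC3 with 851 in replicate 2 of WT cells with etoposide, SUSD6 with 834 in replicate 2 of KO cells with etoposide, SYTL1 with 60.4 in replicate 4 of HOM cells with etoposide, ORAI3 with 373 and SYTL1 with 19.2 in replicate 3 of HET cells with DMSO, INPP5D with 2.14 in replicate 2 of KO cells with DMSO, and TGFA with 928 in replicate 2 and SYTL1 with 127 in replicate 1 of WT cells with DMSO. ABCA12 with 2.85 in replicate 3 of KO cells with DMSO stood above 3 libraries at 0. Below their group were ACER2 with 33.2 in replicate 1 of KO cells with etoposide, CCDC90B with 525 in replicate 4 of HOM cells with etoposide, PRDM1 with 87.2 in replicate 1 of HET cells with etoposide, GRHL3 with 353 in replicate 2 of WT cells with etoposide, and PTP4A1 with 1291 in replicate 3 of HET cells with DMSO. No group of HOM cells with DMSO was among them.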

How the results depend on the processing

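Counts of called members stayed within 1.5 times under every alternative run except those named here. With no fold minimum the KO response had 28 (17 up, 11 down), HOM over KO in etoposide 13 and HET over WT in DMSO 29. Scaling by total counts gave 12 for HET over WT in etoposide. Fits of the compared groups alone gave 5 for HOM over WT and 15 for HOM over KO in DMSO. Without replicates 2 to 4 of HOM cells with DMSO these were 3 and 7, the response difference HOM minus KO had 3, and PLCL2 in the response difference HOM minus WT turned to -0.31. Across all members, 14 calls that use HOM cells with DMSO changed sign without those replicates, and the cause was not tested. With total counts, which put the median of all genes at -0.58 to 1.13 in these comparisons, 16 did. Leaving out 1 library gave 17 to 19 called in the KO, 33 to 35 in the HET, 31 to 34 in the HOM and 36 to 38 in the WT response. In etoposide it gave 35 to 38 for KO over WT, 17 to 21 for HET over WT, 34 to 37 for HOM over WT and 6 to 7 for HOM over KO. In DMSO it gave 7 to 12, 13 to 20, 19 to 28 and 20 to 28 in the same order. For response differences it gave 27 to 30, 7 to 10, 31 to 36 and 20 to 33. A replicate block changed the count of 4 of the 16 comparisons. It gave 35 for HOM over WT in etoposide, 23 for HOM over WT and 24 for HOM over KO in DMSO, and 8 for the response difference HET minus WT. In none of the comparisons did every library correlate best with its own number. Some libraries did, so partial pairing was not excluded.

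Low counts limit ABCA12, GRHL3 and INPP5D in DMSO, where KO and HOM groups held 0 to 18 counts, and SPATA18 and HES2 throughout. With DMSO, ABCA12 held 13 counts in HET and 12 in WT cells, and GRHL3 27 and 16, so their rises there also rest on few counts. INPP5D held 36 counts in KO and 70 in HOM cells with etoposide. Genotype and edited line cannot be told apart, and p-values cover the spread between plates. HOM cells with DMSO rest on 1 library once replicates 2 to 4 are left out.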
